A study of Arabidopsis thaliana with 12 samples.

Results

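AGL103 (AT3G18650) is an Arabidopsis thaliana gene of the AGAMOUS-like family of MADS-box transcription factors. It was read here from 1 array probe, number 1370, among 3439 probes in all. The platform annotation gives 1 gene for 692 of those probes, and AGL103 is the only gene listed for probe 1370. The gene was chosen by its measured values, because it was lower in light than in the dark in every sample number, by a steady amount. Its difference, and how even that difference is over the numbers, are properties of the choice. The difference between the groups is therefore given as a description, with no test. No genome build is named for the array, so no position is printed.

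MADS-box proteins bind DNA through the conserved domain that gives the family its name. The family includes regulators of flower organ identity and of flowering time, which belong to its type II branch. AGL103 belongs to type I, a branch with many members that are active in the female gametophyte, the endosperm and the embryo. Bromoxynil is a herbicide of the nitrile class that stops electron flow out of photosystem II.

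All 12 samples were total RNA of wild-type plants of the ecotype Landsberg treated with 500 µM bromoxynil. The dark group (n = 6) was kept without light for 12 h. The light group (n = 6) was returned to light for 30 min after a dark period of the same length. Samples in each group carry numbers 1 to 6. Plants without the herbicide were not analysed here, and bromoxynil was common to both groups. The labels name no organ, and do not say whether samples came from separate plants. The p-values therefore reflect the variation among these samples alone, and that variation may be technical.

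Before any result was read, 2 light samples differed from all others in their intensities. Light 1 and light 2 had median deposited intensities of 3.88 and 3.90, and those of the other 10 samples lay between 0.559 and 0.654. Their highest intensities were 48.2 and 47.6, against 100 in each of the other 10 samples, so more than the scale differed. The numbers of the 2 groups go together. Deviations from the group means correlated at 0.337 to 0.491 between the dark and light samples of 1 number, across probes, and 6 of 6 dark samples correlated best with the light sample of their own number. All 6 green-tissue markers fixed for the check were on single-gene probes. Among them LHB1B2, an antenna protein of photosystem II, lay at the 99.1 percentile of all tested probes in the dark. PRK, a Calvin cycle kinase, lay at the 24.1 percentile. PSBW, PSAN, PSBY and SBPASE lay at the 99.7, 98.3, 70.0 and 60.7 percentiles. None of the 8 seed, 3 root and 2 pollen markers was on a single-gene probe, so those tissues were not examined.

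AGL103 was above 0 in every sample and, relative to the other probes of the same sample, was lower in light in 6 of 6 sample numbers. The deposited intensities, which are relative values on a linear scale, were 1.49, 1.55, 1.21, 1.20, 1.13 and 1.20 in dark 1 to 6. In light 3 to 6 they were 0.692, 0.788, 0.723 and 0.792. With the authors' scale left as it is, all 4 of these light values lay below all 6 dark values. In light 1 and light 2 the deposited intensities were 5.61 and 5.57, above every dark value, in samples whose medians were raised as given above.

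The direction in numbers 1 and 2 thus depends on how a sample's own scale is treated. Divided by the median of the same sample, AGL103 was at 2.28, 2.39, 1.86, 1.84, 1.81 and 1.90 times the median in dark 1 to 6. In light 1 to 6 it was at 1.45, 1.43, 1.19, 1.36, 1.29 and 1.42 times the median. All light samples lay below all dark samples on this measure, including light 1 and light 2. In light 1 and light 2 the median was raised and the maximum lowered. Division by the median therefore does not remove all of their difference from the other samples.

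Ranks within a sample gave the same order and need no scaling between samples. In the dark, AGL103 was brighter than 87.3%, 88.8%, 81.3%, 80.9%, 79.5% and 82.1% of the 3381 tested probes in numbers 1 to 6. In light it was brighter than 66.4%, 65.6%, 57.9%, 64.5%, 61.5% and 66.0%. The mean percentile was 83.3 ± 3.79 in the dark and 63.6 ± 3.34 in light (SD, n = 6 each). From dark to light, its rank within the sample numbers changed by -23.4 to -16.1 percentile points.

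Quantile normalisation of log2 values, which gives all samples 1 distribution, was used for the remaining comparisons. On this scale AGL103 was at 0.95, 1.02, 0.69, 0.67, 0.62 and 0.72 in dark 1 to 6. Its light values were 0.22, 0.20, -0.02, 0.16, 0.08 and 0.21. The groups did not overlap, and 0.40 log2 units separated the lowest dark from the highest light sample. The group means were 0.78 ± 0.16 and 0.14 ± 0.09 (SD, n = 6 each).

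**Figure D1:**
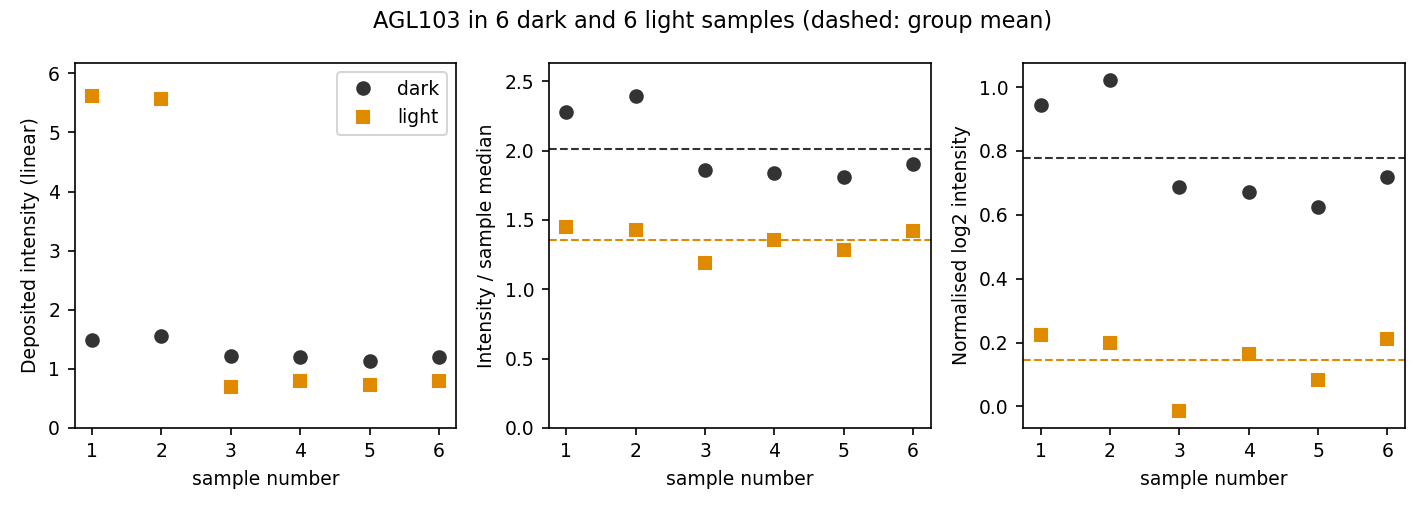
AGL103 by sample number in the dark (circles) and in light (squares): deposited linear intensity, intensity divided by the median of the sample, and quantile-normalised log2 intensity. Dashed lines are group means, and light 1 and light 2 are above the dark samples only on the deposited scale, at 5.61 and 5.57.

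Light minus dark, on the normalised log2 scale, was -0.72, -0.82, -0.70, -0.51, -0.54 and -0.51 in numbers 1 to 6. The mean was -0.63 ± 0.13 (SD over 6 numbers), a level 1.55-fold lower in light. Single numbers ranged from 1.42-fold to 1.77-fold lower. In numbers 3 to 6 alone the mean was -0.56 ± 0.09 (SD, n = 4), and the unscaled values gave -0.67 ± 0.10 there. Unscaled, numbers 1 and 2 gave 1.91 and 1.85, against a median over all probes of 2.64 in both. The mean of the 6 unscaled differences was 0.18, below the median of all probes, 0.78. The array reads RNA of whole samples, in which fewer cells expressing the gene and less RNA per cell cannot be told apart.

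The larger differences in numbers 1 and 2 came with higher dark levels, and they were less extreme among all probes. In numbers 1 and 2, 13.0% and 11.8% of probes had a lower difference than AGL103, against 3.61% to 7.19% in numbers 3 to 6. Dark 1 and dark 2 averaged 0.98, whereas dark 3 and 4 averaged 0.68 and dark 5 and 6 averaged 0.67. In light the corresponding means were 0.21, 0.07 and 0.15. Partners within these pairs differed by 0.02 to 0.10 in the dark and by 0.02 to 0.18 in light. Pair means spanned 0.31 in the dark, more than any difference between partners there, and 0.14 in light, which is less than the largest difference between partners. Whether partners are repeat measurements was not settled by the labels. Averaged by pair, light minus dark was -0.77, -0.60 and -0.52.

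The following counts place AGL103 among all probes and are no support for it, since size, direction and steadiness of its difference were what it was chosen for. All 6 light values lay below all 6 dark values for 69 of 3381 probes (2.04%), of which 14 were on single-gene probes. A value lower in light in all 6 numbers was found for 359 probes (10.6%), and for 76 with a single gene. A lower mean difference than that of AGL103 was found for 225 probes, and 36 of these carried a single gene.

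Among the single-gene probes that were lower in all 6 numbers, AGL103 had the fifteenth lowest mean. The genes next to it in that order, named after their values were seen, were AT1G17744, at -0.64 ± 0.70, and AT1G44920, at -0.63 ± 0.56 (SD over 6 numbers). Their single differences ran from -1.60 to -0.003 and from -1.69 to -0.21. Over all probes the median SD of the 6 differences was 0.31, and that of AGL103 was 0.13, as its choice for a steady difference implies.

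**Figure D2:**
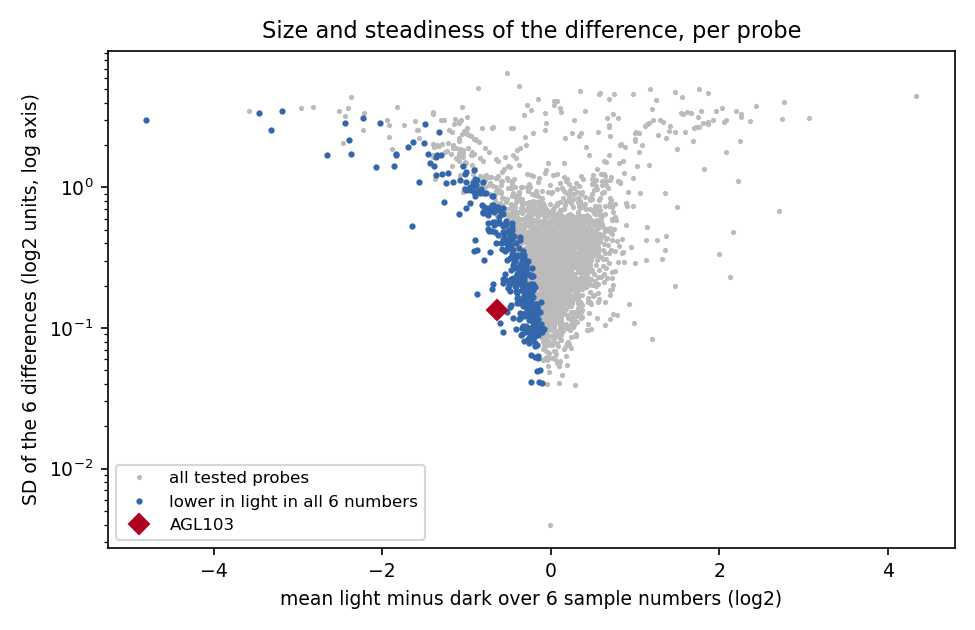
Each point is 1 of 3381 tested probes: the mean of light minus dark over 6 sample numbers (x axis, log2) against the SD of the 6 differences (y axis, log2 units on a log axis), with the 359 probes lower in all 6 numbers in blue. AGL103 (diamond) lies at -0.63 with an SD of 0.13, a place that follows from its choice for a steady difference.

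Over all 6 samples of a group, the spread of AGL103 was smaller in light than in the dark. A choice for a steady difference favours a small spread, so the shares here are a description only. The SD of AGL103 over the 6 light samples was 0.09, and 4.82% of probes had a smaller one (median over probes 0.30). Over the 6 dark samples it was 0.16, and 28.2% of probes had a smaller one (median 0.24). The wider dark spread comes with the levels of dark 1 and dark 2: over dark 3 to 6 the SD was 0.04. Over light 3 to 6 it was 0.10, so in these numbers light had the larger spread.

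Other MADS-box genes on the array did not pass the test. Of 107 genes that carry a MADS-box or AGAMOUS-like name in the gene table, 3 were on single-gene probes, AGL103, AGL26 and AGL54. Light was compared with dark over all tested probes by limma, with a Benjamini-Hochberg adjusted p under 0.05 as the threshold, and 96 of 3381 probes (2.84%) were called. Neither AGL26 nor AGL54 was among them, and neither had an unadjusted limma p under 0.05 (0.672 and 0.937). Over all 3381 probes, 639 had an unadjusted limma p under 0.05. With 2 genes, a count of 0 lies near both backgrounds.

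AGL26 (AT5G26880), which carries an AGAMOUS-like name in the gene table, lay in the middle of the intensity range. Its normalised log2 values were -0.25, -0.24, -0.40, -0.33, -0.03 and 0.11 in dark 1 to 6. In light 1 to 6 they were -0.18, -0.20, -0.22, -0.32, -0.27 and -0.19. The 6 light values all lay inside the dark range. Light minus dark was -0.04 ± 0.09 (SE; 95% CI -0.24 to 0.16, limma adjusted p 0.850), and it was lower in 2 of 6 numbers.

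AGL54 (AT5G27090), another AGAMOUS-like gene, was dim, at the 15.1 percentile of all probes in the dark. Its normalised log2 values were -1.47, -1.38, -2.20, -1.81, -1.76 and -1.26 in dark 1 to 6. Light 1 to 6 gave -0.97, -1.29, -1.91, -1.68, -2.14 and -1.77, so the groups overlapped widely. Light minus dark was 0.02 ± 0.21 (SE; 95% CI -0.45 to 0.49, limma adjusted p 0.982). Its sign turned with median centring (-0.04) and without light 1 and 2 (-0.22), where it also missed the threshold. The difference between these genes and AGL103 was not tested, since AGL103 was chosen for its value.

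In numbers 5 and 6 all 3 genes had lower light than dark values, at -0.25 and -0.30 for AGL26 and -0.39 and -0.51 for AGL54. In numbers 1 to 4, AGL26 and AGL54 had higher light values, by 0.02 to 0.18 and by 0.10 to 0.50. A further 2 probes carry several genes with at least 1 MADS-box gene among them. Neither was called, with adjusted p of 0.992 and 0.241, and their genes are not named because the probe does not tell them apart.

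**Figure D3:**
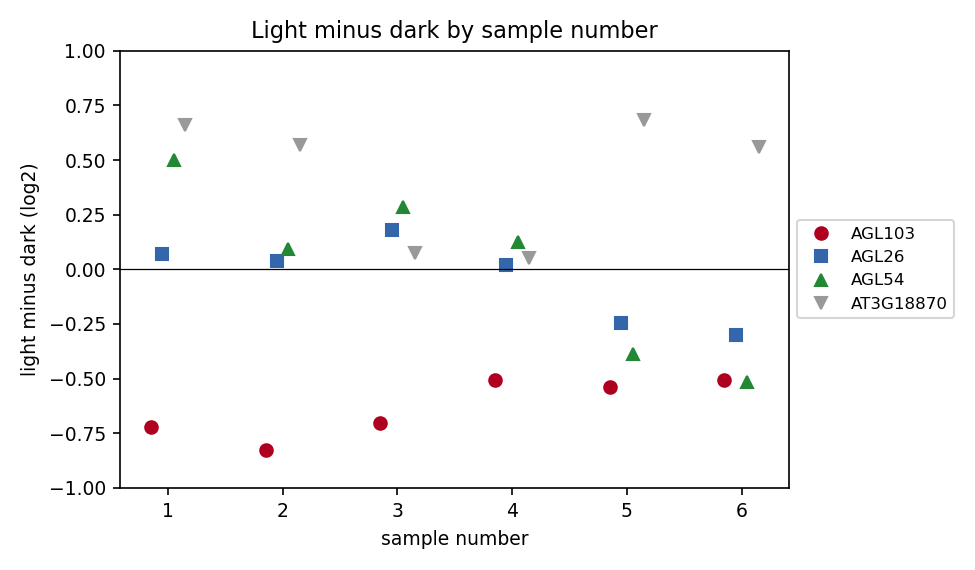
Light minus dark on the normalised log2 scale (y axis) by sample number (x axis) for AGL103, the other MADS-family names AGL26 and AGL54, and AT3G18870, a gene near AGL103. AGL103 stays between -0.82 and -0.51, AGL26 and AGL54 lie on both sides of 0, and AT3G18870 lies above 0 in all 6 numbers.

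A search for other transcription factor genes found few. The gene table has names but no descriptions, and 2 single-gene probes matched the search words. AT4G03090 is NDX, a nodulin homeobox protein that binds DNA. It had a difference of 0.10 ± 0.21 (SE; 95% CI -0.37 to 0.56, limma adjusted p 0.842), and its sign turned without light 1 and 2 (-0.16). AT4G37230 matched only through a clone name that holds the letters AP2, so the match is no evidence that it encodes a transcription factor. Its difference was 0.10 ± 0.32 (SE, limma adjusted p 0.895). Thus 0 of 2 were called, against 2.84% of all tested probes. Neither gene fell below 0.05 before adjustment in limma, whereas 639 of the 3381 tested probes did. With 2 genes, a count of 0 lies near both backgrounds. As AT4G37230 matched through a clone name alone, the count says little about transcription factors.

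Of the 100 genes nearest to AGL103 in chromosome order, 50 on either side, 1 was on a single-gene probe. This was AT3G18870, 33 genes away, which belongs to the family of mitochondrial transcription termination factors. Its values in the dark were 0.49, 0.66, 0.89, 0.79, 0.46 and 0.64 on the normalised log2 scale, and in light 1.15, 1.23, 0.96, 0.84, 1.14 and 1.20. Only light 4 lay below the highest dark sample. AT3G18870 was higher in light in 6 of 6 numbers, as were 374 of the 3381 tested probes. It rose by 0.43 ± 0.10 (SE, limma adjusted p 0.0422), opposite in direction to AGL103, and 2.07% of all probes were called higher. The call was lost with the sample number as a block (adjusted p 0.0904), with a random block for neighbouring numbers (0.307), without light 1 and 2 (0.0978) and in 10 of the 12 fits with a single sample removed. Over all alternatives its adjusted p ran from 0.0167, with median centring, to 0.804, with pairs averaged.

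When a random block joined number 1 with 2, 3 with 4 and 5 with 6, 0.473% of all probes were called. Neither AGL26, AGL54, NDX nor AT3G18870 was called in that fit.

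Likeness to AGL103 was measured by Pearson's r over the 12 samples among 632 other single-gene probes with no value of 0. The points share samples, scaling and the light-dark contrast, partners among the numbers are alike, and genes were ranked by r, so no p is given. The median r was 0.05. The 5 most alike genes were AT5G64150, AT1G03810, AT3G54550, AT1G73740 and AT5G43770, with r from 0.86 to 0.90. All 5 were lower in light in 6 of 6 numbers, as were 10.6% of all probes. A high r with AGL103, whose groups do not overlap, favours such genes, so this count is no separate result. AT5G64150, annotated as a methyltransferase, was also highest in dark 1 and 2, at 0.63 and 0.49, against -0.58 to -0.32 in dark 3 to 6. Its r with AGL103 was 0.93 within the dark group and -0.69 within the light group. In light 1 and 2, AT5G64150 was at its lowest, -1.69 and -1.74, where AGL103 was at 0.22 and 0.20. AT1G03810 had a smaller and steadier difference than AGL103, at -0.31 ± 0.08 (SD over 6 numbers).

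The least alike gene was CML30, a calmodulin-like protein that binds calcium, with r of -0.98 over the 12 samples. CML30 stood at -0.42, -0.53, 0.02, -0.12, -0.22 and -0.32 in dark 1 to 6, and at 0.38, 0.47, 0.60, 0.40, 0.44 and 0.36 in light 1 to 6. The r was -0.82 within the dark samples and -0.86 within the light samples. In the dark, samples 1 and 2 were highest in AGL103 and lowest in CML30, while both genes had the same order over dark 3, 4 and 5. Light minus dark for CML30 was 0.80, 1.01, 0.58, 0.52, 0.67 and 0.68, largest in numbers 1 and 2, as the difference of AGL103 was in the other direction. AT4G18180, a pectin lyase-like gene, and AT5G11550 followed with r of -0.91 and -0.90. Within the dark group their r was -0.66 and -0.78, and within the light group 0.30 and -0.14.

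**Figure D4:**
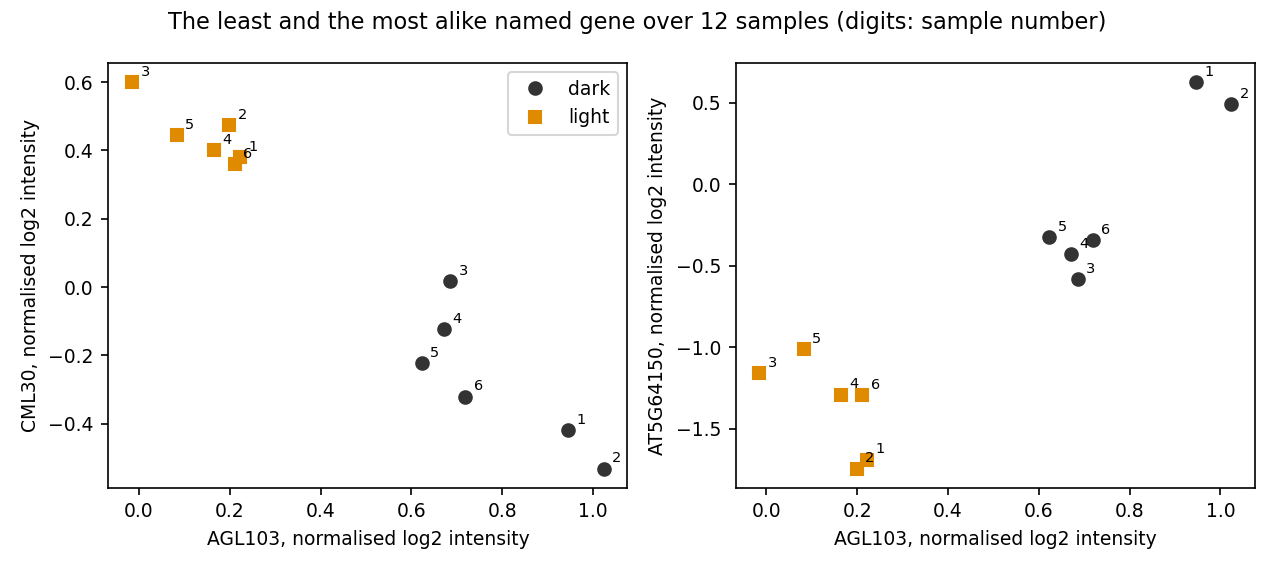
Normalised log2 intensity of CML30 (left) and AT5G64150 (right) against AGL103 in 12 samples, dark as circles and light as squares, with digits for sample numbers. CML30 is high where AGL103 is low between the groups (r -0.98 over 12 samples) and in dark 1 and 2 against the other dark samples, and AT5G64150 runs with it between the groups and in the dark but not among the light samples.

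Deviations from the group means leave the light-dark contrast out. On that measure the 5 most alike genes were AT3G02450, AT5G48440, AT5G61450, AT1G73470 and AT5G17280, with r from 0.86 to 0.94 over 12 samples, against a median of 0.11. This ranking was loose: 1 of the 5 remained among the 5 most alike without numbers 1 and 2, and 2 to 5 remained when each sample was left out. None was among the 5 most alike by level, and none was called in limma. AT3G02450 had r of 0.94 within the dark and 0.95 within the light samples, but its light minus dark was 0.03 ± 0.20 (SD over 6 numbers). AT1G73470 shared these deviations (r 0.87 in the dark and 0.87 in light). It was higher in light by 0.38 ± 0.21 (SD over 6 numbers), with a limma adjusted p of 0.0905. The rise was seen in 6 of 6 numbers, as for 374 of the 3381 tested probes. The lowest r were those of AT5G42070, AT1G76240 and PSB27, a lumenal protein of photosystem II assembly, at -0.88, -0.87 and -0.85. Over numbers 3 to 6 these were -0.09, -0.52 and -0.04, so numbers 1 and 2 carried most of the relation for AT5G42070 and PSB27.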

How the data were processed

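The value table holds 1 column for each of 12 samples. Its values are relative spot intensities as deposited by the authors. They are linear, with none below 0. The upstream steps (scanner, background, scaling) are not given in the labels used here. Signal over background is therefore unknown, and the number of arrays limits the precision. Gene names came from the platform annotation and the RefSeq table of TAIR10.1, which matched 690 of 692 single-gene probes.

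A 0 was replaced by that sample's lowest positive value, and log2 values were quantile normalised over the 12 samples. Left out were 58 of 3439 probes, which were at 0 throughout. A further 188 were at 0 in 1 to 11 samples. The test was limma 3.58.1 under R 4.3.3 (two-sided, with lmFit and eBayes, and Benjamini-Hochberg adjustment over 3381 probes), checked on simulated data. The simulated samples were independent of each other, so that check does not cover likeness between samples of neighbouring numbers. Sample numbers pair the groups by the correlations given above, and the block is an alternative. SEs, CIs and adjusted p given without a block come from a fit that treats the 12 samples as independent. The random block estimated a correlation of 0.67 within pairs of neighbouring numbers of a group, which that fit leaves out.

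The gene, the lists and the tests were chosen with earlier results of these data known. Named were AGL103, every listed MADS-box and neighbouring gene, the largest changes of the transcription factor list, and the 5 most and 3 least alike genes by each measure. Protein sequences were not used here. Alternatives were no scaling, median centring, a pseudocount (0.223, the 10th percentile), a filter on the dimmest 25% of probes, blocks and averages of pairs, trend and robust, arrayWeights and left-out samples.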

Additional observations from a re-analysis of the deposited data

How the results depend on the processing

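The difference of AGL103 was -0.63 and stayed within 1 SD of that value, with the same sign, under median centring (-0.57), the pseudocount (-0.53), the filter on dim probes, averaged pairs, without light 1 and 2 (-0.67), without numbers 1 and 2 (-0.57) and without each sample (-0.67 to -0.59). Without scaling it turned to 0.18, because light 1 and 2 keep their raised medians. The difference in percentile rank, -19.7, became -26.2 with the dim probes left out, by construction, and ran from -20.4 to -18.5 without each sample.

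Of the 96 called probes (70 higher, 26 lower), counts were 2 without scaling, 1 with pairs averaged, 16 with the random block and 174 with arrayWeights, and 46 to 86 without each sample, lowest without dark 3. The call of AT3G18870 became 0 of 1 without scaling, with pairs averaged, with the random block, with the replicate block (adjusted p 0.0904), with arrayWeights, and without light 1 and 2 or numbers 1 and 2, and 0 to 1 without each sample. The replicate block gave 116 called probes and changed no call of AGL26, AGL54, NDX or AT4G37230. The other MADS-box genes and the transcription factor list stayed at 0 called in every setting. Each list holds 2 genes, and from 1 to 174 probes were called over these settings. A count of 0 therefore lies near the background in each, and its constancy says little about the lists.

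Of the 5 most alike genes by level, 0 remained without scaling, 3 with median centring, 3 with pairs averaged, 2 without light 1 and 2, 1 without numbers 1 and 2, and 3 to 5 without each sample. By deviations, 2 remained without scaling, 1 with pairs averaged, 3 without light 1 and 2, 1 without numbers 1 and 2, and 2 to 5 without each sample, lowest without light 6. Both rankings are therefore loose, and the cause was not tested.

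Small differences that missed the threshold turned sign. AGL26 gave 0.72 without scaling and -0.083 to 0.020 without each sample. AGL54 gave -0.039 with median centring, -0.030 with arrayWeights, -0.22 without light 1 and 2, -0.12 without numbers 1 and 2 and -0.11 to 0.12 without each sample. NDX (AT4G03090) gave -0.15 with arrayWeights, -0.16 without light 1 and 2, -0.065 without numbers 1 and 2 and -0.049 to 0.18 without each sample. AT4G37230 gave -0.12 with median centring, -0.077 with arrayWeights, -0.015 without light 1 and 2, -0.13 without numbers 1 and 2 and -0.072 to 0.27 without each sample.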
